A study of Mus musculus with 6 samples.

Results

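Ribosome-bound mRNA levels were followed for 10 genes of the Notch pathway in labelled cells of the adult mouse dentate gyrus. They were the receptors Notch1 and Notch2, the ligands Dll1, Dll3 and Jag1, the Fringe genes Lfng, Mfng and Rfng, and the target genes Hes1 and Hes5. The genes were taken by name, as the rows of these 10 symbols among the 37620 genes of the count files, and all 10 were among the 15056 genes that passed a filter of 1 CPM (the count of a gene scaled to a fixed library size) in at least 1 sample. The study itself named Lfng from these samples, so its direction here is not independent evidence. The study also reported higher Lfng by qRT-PCR on separately isolated mRNA. By immunostaining it reported more of the cleaved Notch1 intracellular domain in stem cells lacking Klf9. Neither measurement was among the data used here. A gene was called where it passed the study's threshold, at least 1.2-fold with an unadjusted p under 0.05. Of the 10, Lfng alone was called, at a log2 fold change of 0.56, Klf9 f/f over Klf9 +/+, where 1.82% of all genes tested were called higher and 2.50% lower. After Benjamini-Hochberg adjustment over all genes its p was 0.763 in the quasi-likelihood test of edgeR, which left 0 genes under 0.05. The targets Hes1 and Hes5 had log2 fold changes of -0.0045 and 0.05.

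The 6 samples were divided evenly, 3 of the genotype Klf9 +/+ and 3 of Klf9 f/f, which carries floxed alleles of the transcription factor gene Klf9. Mice of both genotypes also carried Gli1CreERT2, a tamoxifen-dependent Cre expressed from the Gli1 locus, and Rpl22HA f/+, an allele that gives an HA-tagged ribosomal protein after Cre recombination. Mice of 2 to 3 months received 3 tamoxifen injections of 250 mg/kg, 12 hr apart, and each sample pooled the 6 dentate gyri of 3 such animals, taken 4 days after the last injection. In this RiboTag assay, an antibody to HA pulled down tagged ribosomes with the mRNAs they carried, and the RNA was sequenced. By the study's own account, Gli1CreERT2 acts in radial glia-like neural stem cells (RGLs) and in astrocytes and recombines Klf9 in only some of the labelled cells, so each value is a mixture of cell types and of recombined and unrecombined cells. Levels are given in the order of replicates 1, 2 and 3 of a genotype. Klf9 itself had 201, 204 and 139 CPM in the Klf9 +/+ samples, against 114, 121 and 120.0 CPM in the Klf9 f/f samples. All Klf9 f/f samples were below all Klf9 +/+ samples, with a log2 fold change of -0.59 (standard error 0.15). The log2 difference was -0.78 over replicates 1 and 2 and -0.21 in replicate 3, which belong to different library series as described below. Klf9 passed the study's threshold, and its Benjamini-Hochberg adjusted p was 0.844 in the quasi-likelihood test of edgeR.

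Notch signalling passes between neighbouring cells. A Delta or Jagged ligand on a cell binds a Notch receptor on the next, the receptor is cut, and its intracellular part enters the nucleus, joins the DNA-binding protein RBPJ and switches on targets such as the Hes genes, whose products repress proneural genes. Fringe enzymes add a sugar to the receptor in the Golgi and change how strongly it responds to Delta and Jagged ligands. In the adult dentate gyrus, the pathway is known for keeping neural stem cells in an undifferentiated and largely quiescent state, and Lfng is known as a gene of these stem cells.

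The library names carried a series number, 22 for replicates 1 and 2 of each genotype and 32 for replicate 3 of each. Counts on genes ranged from 52188635 to 66343759 in series 22 and from 21594714 to 27594529 in series 32, and a member had 346 to 6210 counts in a sample, so counting error was small beside the spread between samples. Genes listed as markers of radial glia were present, which does not assign their levels to radial glia or to astrocytes, both labelled here. Of 11 listed, 10 were followed here, Nes, Sox2, Hopx and Gli1 among them, and Tfap2c was not analysed here. All 10 passed the filter and 1 of them, Thbs4, was called higher in Klf9 f/f. The summed level of 14 astrocyte markers was 13720 to 17040 CPM in Klf9 +/+ and 17199 to 20324 CPM in Klf9 f/f, with 5 of 14 called higher. Markers of choroid plexus (14 of 14), mural cells (5 of 8), blood (5 of 5), endothelium (3 of 12) and meninges (1 of 10) were called lower in Klf9 f/f. Of markers of granule neurons (11) and microglia (10), 0 were called, and of those of the oligodendrocyte lineage 1 of 8 was called higher. Over all genes tested 1.82% were called higher and 2.50% lower, so a single call in a list says little. Choroid plexus markers summed to 150 to 2790 CPM in Klf9 +/+ and 28.7 to 427 CPM in Klf9 f/f, and no marker of these lists was under the filter.

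The regions before the starts of Lfng and Hes5 are shown. They were chosen because Lfng was the only member called at the study's unadjusted threshold and Hes5 had the highest level of the members. A further reason is that RBPJ and Krüppel-like factors such as Klf9 bind short motifs in promoters. Each window runs from 250 bases before to 50 bases after the start in RefSeq, 5′ to 3′ on the gene's strand, in the build GRCm38.p6. Lfng is chr5:140607091-140607390 on the plus strand and Hes5 is chr4:154960673-154960972 on the plus strand. Capitals mark matches, on either strand, to TGGGAA (the core of the RBPJ motif), GGGCGG (the GC box) or CACCC (a motif of Krüppel-like factors).
Lfng: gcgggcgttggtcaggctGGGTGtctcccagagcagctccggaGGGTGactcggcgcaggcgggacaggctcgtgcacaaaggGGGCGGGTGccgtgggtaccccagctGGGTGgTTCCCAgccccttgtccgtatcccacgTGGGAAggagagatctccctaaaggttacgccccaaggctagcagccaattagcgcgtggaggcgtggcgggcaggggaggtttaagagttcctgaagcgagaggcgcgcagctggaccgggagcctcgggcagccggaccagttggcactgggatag
Hes5: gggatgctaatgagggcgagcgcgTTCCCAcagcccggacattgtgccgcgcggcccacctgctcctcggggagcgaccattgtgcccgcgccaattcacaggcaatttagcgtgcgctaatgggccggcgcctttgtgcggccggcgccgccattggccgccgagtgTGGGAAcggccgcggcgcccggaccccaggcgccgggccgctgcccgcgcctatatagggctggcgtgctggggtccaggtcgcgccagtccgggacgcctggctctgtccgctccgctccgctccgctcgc
The Lfng window held TGGGAA at 2 places, which began 135 and 108 bases before the start. The Hes5 window also held it at 2 places, 226 and 82 bases before the start. The motif was in 0 of the windows of Notch1, Notch2, Dll1 (2 windows), Dll3, Jag1 and Rfng, and 25.6% of 32851 mouse promoter windows of the same length held it. GGGCGG was found 1 time in Lfng, where it overlapped a CACCC match, 1 time in Dll3, 5 times in Notch1, 7 times in Notch2, 6 times in Rfng and 0 times in Hes5, Jag1 and Dll1, against 35.7% of all windows with a match. CACCC matched 4 times in Lfng, 2 times in Rfng and in 1 of the 2 windows of Dll1, 1 time in Notch1 and in Notch2 and 0 times in Dll3, Jag1 and Hes5, against 57.5% of all windows with a match. The windows of Lfng and Hes5 held 66.7% and 72.7% G and C, beside a median of 52.7% over all windows. A match shows letters in a window and not that a factor binds there.

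Levels were compared between genes as CPM per kilobase of exon, the summed length of all annotated exons. This length kept exon bases shared with another gene, where unstranded reads cannot be assigned to either. Such bases made up 31.8% of the exons of Hes5, 20.6% of Dll1, 9.76% of Notch1 and none of the other members. Their effect on the order of levels and on ratios between genes was not tested. Hes5 had the highest mean of the 10 over the 6 samples, 83.5 ± 12.7 (SD, n = 6), followed by Lfng at 43.2 ± 18.7 and Rfng at 24.5 ± 2.54. Hes1 at 13.7 ± 2.30 and Dll3 at 13.5 ± 3.95 followed. Mfng at 10.6 ± 4.09, Dll1 at 8.98 ± 2.44, Notch1 at 6.42 ± 1.90, Notch2 at 5.73 ± 2.20 and Jag1 at 2.16 ± 0.952 made up the lower part of the order. Among all genes tested Hes5 was at percentile 94.3, Lfng at percentile 88.0 and Jag1 at percentile 27.6. Only at 2 steps of this order did the ranges over samples not overlap, from Rfng to Hes1 and from Notch2 to Jag1. Within single samples the order held in all 6 for 6 of the 9 neighbouring pairs, while Hes1 exceeded Dll3 in 3 of 6, Mfng exceeded Dll1 in 4 of 6 and Notch1 exceeded Notch2 in 5 of 6. Neighbours such as Hes1 and Dll3 therefore did not differ beyond their spread. The place of Mfng depended on the length used. With the longest annotated transcript in place of the summed exons, Mfng at 16.1 ± 6.23 came before Dll3 at 14.9 ± 4.35 and exceeded it in 4 of 6 samples, and the other members kept their order.

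**Figure D1:**
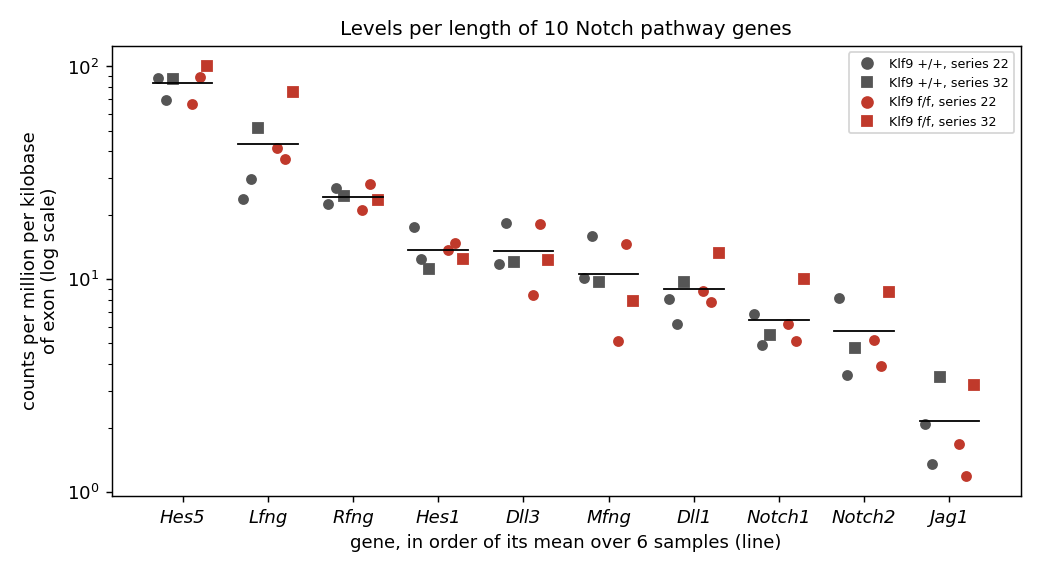
CPM per kilobase of exon on a log scale for the 10 genes in each sample, grey for Klf9 +/+ and red for Klf9 f/f, circles for series 22 and squares for series 32, with a line at the mean of all 6 samples. Hes5 is highest at a mean of 83.5 and Jag1 lowest at 2.16, and the points of Rfng spread least around their line.

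Among the receptors, Notch1 (ENSMUSG00000026923) lies on the minus strand of chromosome 2 of mm9 from 26313423 to 26372183. The Klf9 +/+ samples had 98.0, 69.7 and 77.6 CPM and the Klf9 f/f samples 87.4, 73.3 and 142 CPM. Klf9 f/f replicate 3 stood above every other sample, and within series 22 the genotypes overlapped. The means were 81.8 ± 14.6 (SD, n = 3) and 101 ± 36.5 CPM, and the log2 fold change, Klf9 f/f over Klf9 +/+, was 0.25 (95% interval -0.24 to 0.74), which did not pass the threshold. The log2 difference was -0.046 within series 22 and 0.88 within series 32. The interaction of genotype and series was 0.94 (standard error 0.39, Benjamini-Hochberg adjusted p = 1.00, quasi-likelihood test in edgeR). Notch1 was the only member with an unadjusted interaction p under the threshold, a state shared by 1.53% of all genes tested, and series 32 holds a single sample of each genotype. Exons of Notch1 share 1389 bases, or 9.76% of their length, with exons of the long noncoding RNAs Gm13568 and 0610009E02Rik on the other strand, which had 0 to 1 and 14 to 111 counts, and without strand the reads there cannot be assigned to either gene.

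Notch2 (ENSMUSG00000027878), the other main receptor of neural stem cells, lies on the plus strand of chromosome 3 from 97817461 to 97954290. Klf9 +/+ samples stood at 86.3, 37.4 and 49.9 CPM, and Klf9 f/f samples stood at 54.7, 41.3 and 91.4 CPM. The highest sample of each genotype was in a different series, and the ranges overlapped almost fully. Its log2 fold change was 0.04 (95% interval -0.72 to 0.80), from -0.26 within series 22 to 0.87 within series 32, and the interaction was 1.24 (standard error 0.58, with an adjusted p = 1.00 in that edgeR test). In bulk samples such as these, fewer cells of a type and less RNA per cell cannot be told apart.

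Across samples, Notch1 and Notch2 moved together. With the mean of each library series taken off, their log2 CPM had a Pearson's r of 0.90 over the 6 samples, which is given as a description since the points share series, depth and cell mixture. The mean log2 CPM of 10 radial glia markers had an r of 0.94 with Notch1 and 0.90 with Notch2, and its values were 7.21, 6.91 and 6.90 in Klf9 +/+ and 7.14, 7.08 and 7.23 in Klf9 f/f. Klf9 +/+ replicate 1 and Klf9 f/f replicate 3 were thus highest for both receptors and for the markers, and the part of this mixture in the receptors' values was not tested. Without Klf9 +/+ replicate 1, Notch1 had a log2 fold change of 0.49 and Notch2 of 0.58, and both were called. When the choroid plexus marker level entered the fit as a covariate, Notch2 was instead called lower at -1.42, and with the astrocyte marker level it was called lower at -0.70.

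Among the ligands, Dll1 (ENSMUSG00000014773), a Delta ligand that activates receptors on neighbouring cells, lies on the minus strand of chromosome 17 from 15504318 to 15513836. In Klf9 +/+ it measured 34.2, 25.9 and 40.8 CPM, and in Klf9 f/f 37.2, 32.9 and 56.3 CPM. Klf9 f/f samples were mostly the higher within a series, but in series 22 Klf9 +/+ replicate 1 stood above Klf9 f/f replicate 2. Over both series the log2 fold change of Dll1 was 0.30 (95% interval -0.04 to 0.65), which did not pass the threshold. It was 0.23 within series 22 and 0.46 within series 32. Dll1 followed the astrocyte markers with an r of 0.93 and the radial glia markers with an r of 0.94. It moved about as strongly against the choroid plexus markers, with an r of -0.94, and the granule neuron markers, with an r of -0.91. The part of these cell types in the Dll1 level was not tested. With the astrocyte covariate the log2 fold change of Dll1 was 0.04. With the choroid plexus covariate it was -0.17 and was not called, and with the endothelial covariate it was 0.46 and was called higher. Without Klf9 +/+ replicate 1 it was 0.45 and passed. Its exons share 867 bases, or 20.6%, with the noncoding gene A930024N18Rik, which had 5 to 18 counts.

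Dll3 (ENSMUSG00000003436), a Delta family member that acts mainly inside the cell and is known from cells committed to the neuronal lineage, lies on the minus strand of chromosome 7 from 29076673 to 29087257. Klf9 +/+ samples had 34.1, 53.1 and 34.5 CPM and Klf9 f/f samples had 24.2, 52.1 and 35.6 CPM. Replicate 2 was high in both genotypes and Klf9 f/f replicate 1 lowest, so the spread within a genotype exceeded the difference between them. Its log2 fold change was -0.12 (95% interval -0.74 to 0.50). With endothelial markers as a covariate Dll3 was called lower, at -0.79, and with astrocyte markers it was at 0.57 and was not called.

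Jag1 (ENSMUSG00000027276), a Jagged ligand, lies on the minus strand of chromosome 2 from 136907192 to 136942380. The Klf9 +/+ samples had 12.2, 7.91 and 20.2 CPM and the Klf9 f/f samples 9.84, 6.96 and 18.5 CPM. The series 32 sample was the highest of each genotype, and the genotypes overlapped within series 22. Its log2 fold change was -0.21 (95% interval -0.71 to 0.28), with -0.25 and -0.13 within series 22 and 32. Jag1 was the ligand that moved most with endothelial markers, with an r of 0.88, and the 12 endothelial markers summed to 166 to 413 CPM in Klf9 +/+ and 66.0 to 265 CPM in Klf9 f/f. The part of endothelial RNA in the Jag1 level was not tested directly, and with endothelial markers as a covariate its log2 fold change turned to 0.14 and was not called. With astrocyte markers as a covariate it was called lower, at -0.69.

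**Figure D2:**
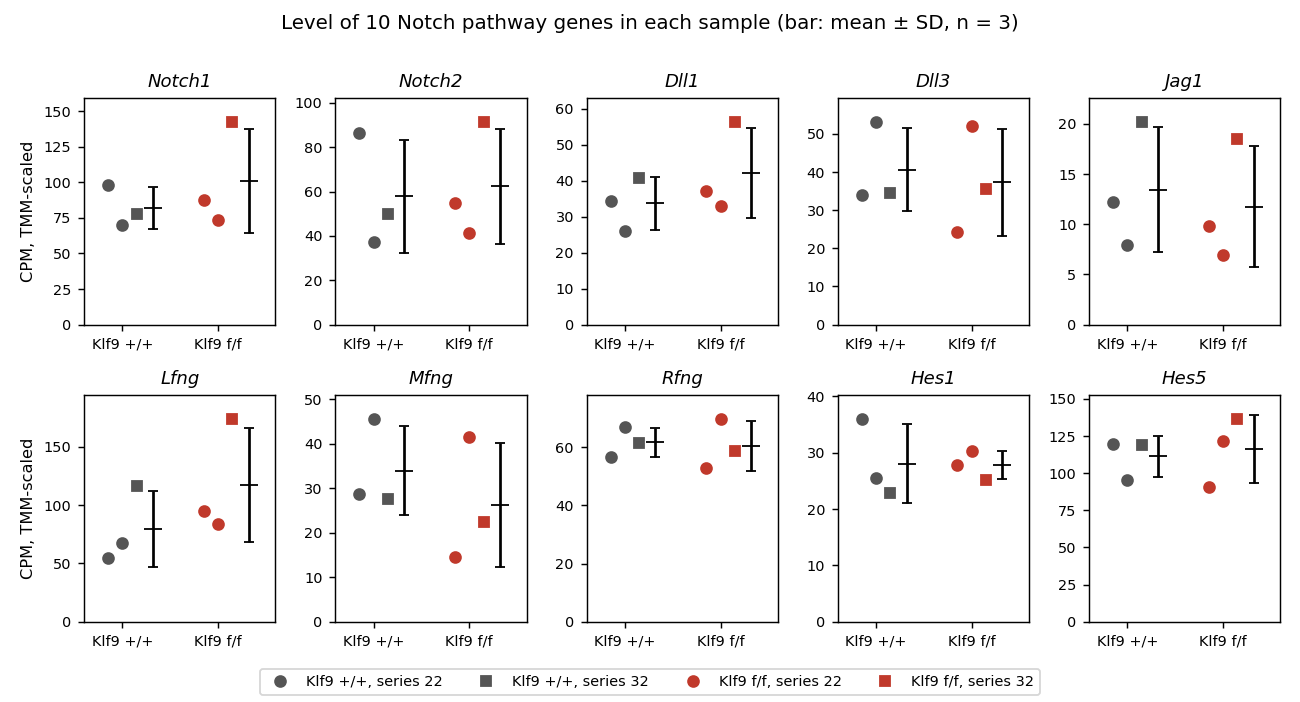
TMM-scaled CPM of each of the 10 genes in the 3 Klf9 +/+ samples (grey) and 3 Klf9 f/f samples (red), circles for series 22 and squares for series 32, with the mean and SD beside each group. Lfng runs from 54.4 to 117 CPM in Klf9 +/+ and from 84.2 to 174 CPM in Klf9 f/f and its genotypes separate only within a series, while the groups of the other members overlap within series 22.

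Of the 3 Fringe genes, Lfng (ENSMUSG00000029570), whose enzyme modifies Notch receptors, lies on the plus strand of chromosome 5 from 141083295 to 141091497 and has a single annotated transcript of 2282 bases. Klf9 +/+ samples stood at 54.4, 67.5 and 117 CPM, and Klf9 f/f samples stood at 94.8, 84.2 and 174 CPM. Both Klf9 f/f samples of series 22 stood above both Klf9 +/+ samples of that series, and the Klf9 f/f sample of series 32 stood above its Klf9 +/+ sample, while over all 6 samples Klf9 +/+ replicate 3 exceeded 2 of the Klf9 f/f samples. The log2 fold change was 0.56 (standard error 0.14, 95% interval 0.25 to 0.87), with 0.56 within series 22 and 0.57 within series 32. It was called at the study's threshold, but its Benjamini-Hochberg adjusted p over all genes was 0.763 in the quasi-likelihood test of edgeR. In a fit without the series term Lfng was not called, at the same log2 fold change of 0.56, and with each sample left out in turn it passed in all 6 cases, at 0.48 to 0.65. Leaving out either replicate 3 leaves a single sample in series 32, which the series term absorbs. Both of those cases therefore rest on the series 22 samples and gave 0.55, as did series 22 alone. Lfng moved against the mural cell markers with an r of -0.82, and those 8 markers summed to 579 to 1085 CPM in Klf9 +/+ and 433 to 751 CPM in Klf9 f/f. The r was -0.81 with granule neuron, -0.72 with blood, -0.70 with choroid plexus and -0.61 with endothelial markers. With meningeal markers it was -0.36, and with progenitor and neuroblast markers -0.32. It was 0.69 with astrocyte, 0.34 with radial glia, 0.24 with oligodendrocyte lineage and 0.09 with microglia markers. The part of these cell types in the Lfng level was not tested. With astrocyte, choroid plexus and endothelial markers as a covariate in turn, its log2 fold change was 0.57, 0.90 and 0.56, and it passed the threshold in each.

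Mfng (ENSMUSG00000018169), a further Fringe gene, lies on the minus strand of chromosome 15 from 78586312 to 78603905. In Klf9 +/+ it measured 28.7, 45.5 and 27.6 CPM, and in Klf9 f/f 14.6, 41.5 and 22.4 CPM. Klf9 f/f replicate 1 was the lowest sample and replicate 2 was high in both genotypes, so the groups overlapped. The log2 fold change was -0.37 (95% interval -1.13 to 0.39), with -0.55 and -0.30 within series 22 and 32. Without Klf9 f/f replicate 2 it was -0.89 and Mfng was called lower, and without Klf9 f/f replicate 1 it was -0.03. With endothelial markers as a covariate it was -1.27 (Benjamini-Hochberg adjusted p = 0.0356, quasi-likelihood test in edgeR), in a fit that called 4.97% of all genes lower, whereas with astrocyte markers it was 0.48 and did not pass.

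Rfng (ENSMUSG00000025158), the third of the family, lies on the minus strand of chromosome 11 from 120642060 to 120645521. Klf9 +/+ samples had 56.4, 66.7 and 61.5 CPM and Klf9 f/f samples had 52.8, 69.6 and 58.6 CPM. These were the most even values of the 10 genes relative to their level, with no separation of the genotypes in series 22. Genotypes differed by -0.03 on the log2 scale (95% interval -0.37 to 0.31).

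Dll3, Mfng and Rfng followed the progenitor and neuroblast markers. The mean log2 CPM of 9 progenitor and neuroblast markers, Eomes, Neurod1 and Dcx among them, was 7.37, 8.13 and 7.28 in Klf9 +/+ and 6.69, 7.71 and 7.37 in Klf9 f/f. It had an r of 0.96 with Dll3, 0.95 with Mfng and 0.86 with Rfng over the 6 samples with series means taken off, and Dll3 and Mfng had an r of 0.96 with each other. These markers had 0 of 9 calls and 1 of 9 positive fold changes, with a difference of -0.55 in series 22 and 0.09 in series 32. By the same measure Dll3, Mfng and Rfng had an r of 0.32, 0.53 and 0.36 with the granule neuron markers. With microglia markers the r was -0.95, -0.88 and -0.84, and with astrocyte markers -0.73, -0.86 and -0.74. The part of these cell types in the values of Dll3, Mfng and Rfng was not tested.

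**Figure D3:**
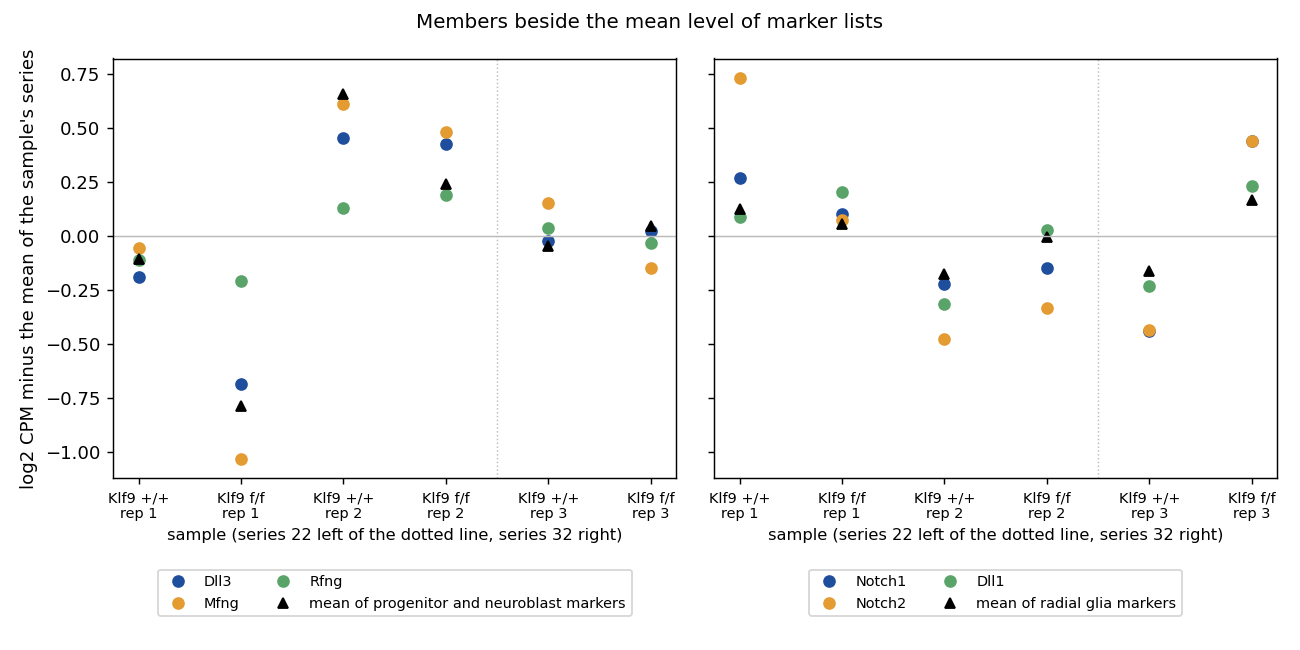
Log2 CPM minus the mean of the sample's library series for Dll3, Mfng and Rfng beside the mean of 9 progenitor and neuroblast markers (left) and for Notch1, Notch2 and Dll1 beside the mean of 10 radial glia markers (right), with genes as coloured circles and markers as black triangles. Dll3 and Mfng lie low in Klf9 f/f replicate 1 and high in replicate 2 of both genotypes as the markers do (r of 0.96 and 0.95), and Notch1 and Notch2 coincide in both replicates 3.

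Of the target genes, Hes1 (ENSMUSG00000022528) lies on the plus strand of chromosome 16 from 30064470 to 30067882. The Klf9 +/+ samples had 36.0, 25.4 and 22.8 CPM and the Klf9 f/f samples 27.9, 30.3 and 25.2 CPM. All Klf9 f/f samples lay within the range of the Klf9 +/+ samples. On the log2 scale the genotypes differed by -0.0045 (95% interval -0.38 to 0.37).

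Hes5 (ENSMUSG00000048001), the Hes gene most closely tied to Notch in neural stem cells, lies on the plus strand of chromosome 4 from 154335032 to 154336480. Klf9 +/+ samples stood at 120.0, 95.2 and 119 CPM, and Klf9 f/f samples stood at 91.0, 122 and 136 CPM. The lowest and the highest sample were both Klf9 f/f, and the groups overlapped. The log2 fold change was 0.05 (95% interval -0.31 to 0.41), with -0.02 and 0.20 within series 22 and 32. The intervals of both Hes genes hold differences larger than the 1.2-fold of the threshold in either direction. The exons of Hes5 share 433 bases, or 31.8%, with the noncoding RNA RP24-89N4.5, which had 6 to 35 counts.

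Over the 10 genes, 1 was called higher and 0 lower in Klf9 f/f, where 1.82% of all genes tested were called higher and 2.50% lower. At an adjusted p under 0.05 the quasi-likelihood test of edgeR called 0 members and 0% of all genes, and 650 genes had an unadjusted p under 0.05, Lfng alone among the members. The likelihood-ratio test of edgeR called 58 genes and DESeq2 called 39 at an adjusted p under 0.05, with Lfng at 0.0803 and 0.0610. Of the 10 log2 fold changes 5 were positive and 5 negative, and their median was 0.02 beside 0.0008 over all genes. Lfng was also the only member whose genotypes did not overlap within each series, as 7.78% of all genes were above and 5.53% below in this way. The sign of the difference was opposite in the series for 5 of 10 members and for 6720 of 15056 genes. The p-values of the quasi-likelihood test rest on the spread between pooled samples, with 3 residual degrees of freedom for each gene. To these the test adds information on the spread that is shared over all genes tested.

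**Figure D4:**
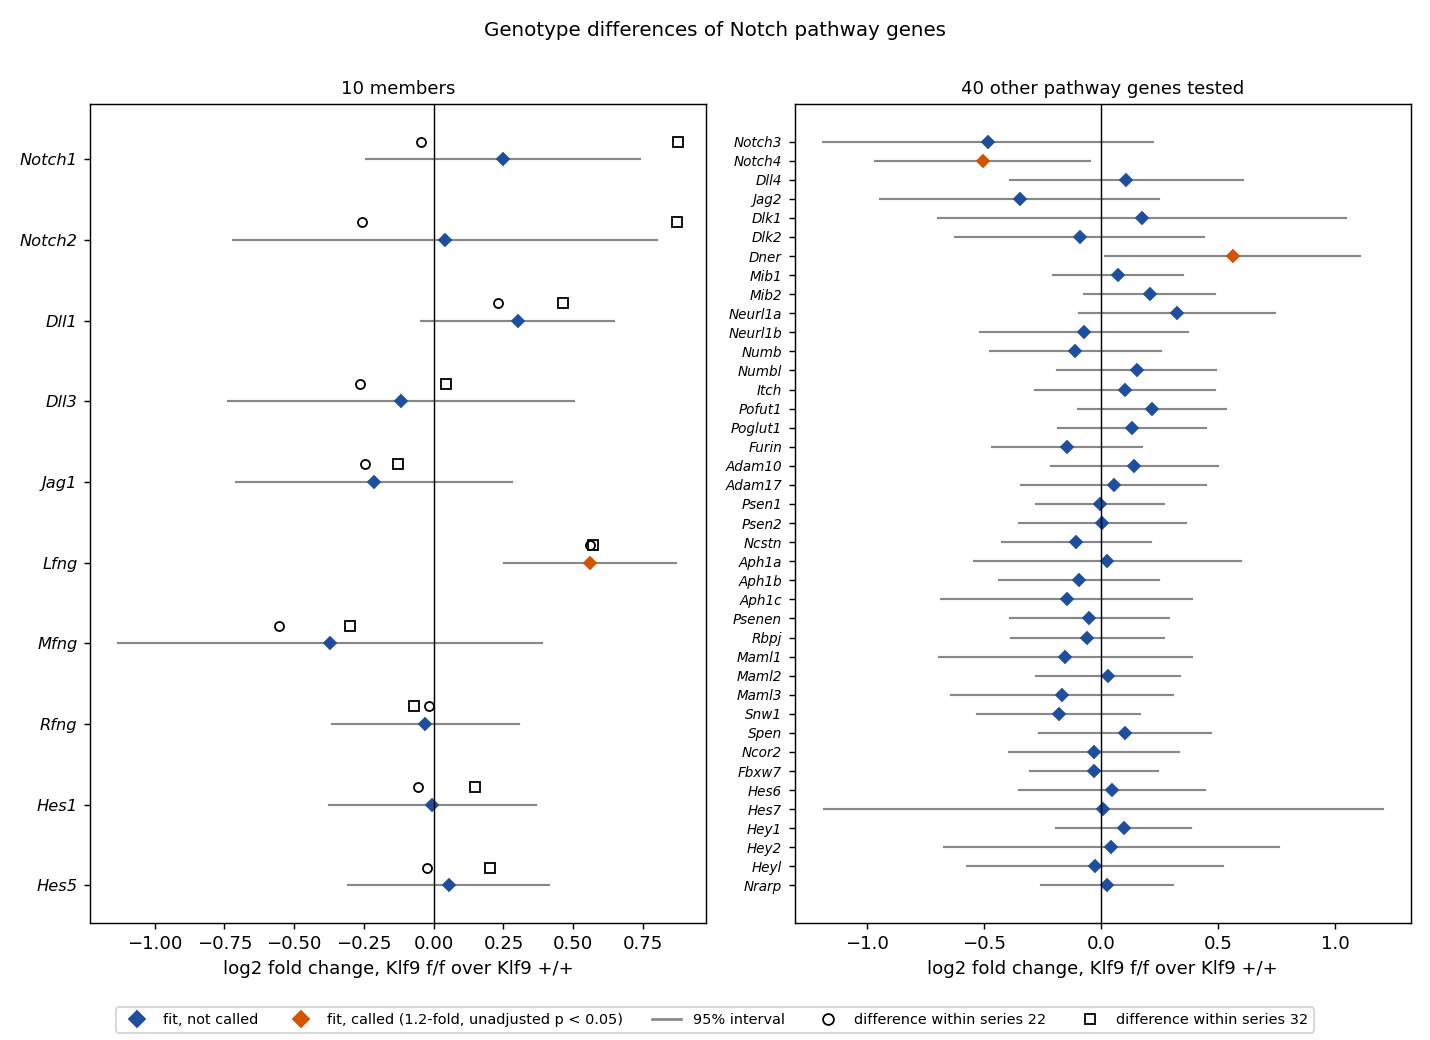
Log2 fold change of Klf9 f/f over Klf9 +/+ for the 10 members (left) and for 40 other Notch pathway genes (right), diamonds for the fit, orange where called, lines for 95% intervals. Open circles and squares, in the left panel only, show the differences within series 22 and 32. Lfng at 0.56 has an interval above 0 and differences of 0.56 and 0.57 within the series, whereas Notch1 and Notch2 lie near 0 or below in series 22 and at 0.88 and 0.87 in series 32.

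Within families, the balance between paralogs was read as a log2 ratio of levels per kilobase inside each sample, which does not depend on scaling between samples. For Lfng over Rfng the ratio was 0.07, 0.14 and 1.05 in Klf9 +/+ and 0.97, 0.40 and 1.69 in Klf9 f/f. Lfng thus exceeded Rfng in every sample, by a mean of 1.34-fold in Klf9 +/+ and 2.03-fold in Klf9 f/f. The difference of the log2 ratios was 0.60, with 0.58 in series 22 and 0.64 in series 32 (exact two-sided permutation test over the 6 samples, p = 0.3, adjusted p = 0.667 over the 5 ratios tested). The smallest p that 3 against 3 samples allow is 0.1. That test mixes the series, so genotypes were also exchanged within a series only, which gives 12 arrangements and a smallest p of 0.167, and cannot pass a threshold of 0.05. Lfng over Rfng had this smallest value (exact permutation within series, p = 0.167, adjusted p = 0.417).

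Lfng made up 42.1%, 40.9% and 59.8% of the summed Fringe level in Klf9 +/+ and 61.2%, 46.4% and 70.8% in Klf9 f/f. Every Klf9 f/f share exceeded the Klf9 +/+ shares of its series, and the groups overlapped across series. Mfng held 17.1% ± 5.41 (SD, n = 3) in Klf9 +/+ and 11.1% ± 6.32 in Klf9 f/f, and its log2 ratio to Rfng differed by -0.43 (exact permutation test, p = 0.4, adjusted p = 0.667, and p = 0.5 within series).

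Dll1 exceeded Jag1 by a mean of 3.66-fold in Klf9 +/+ and 5.23-fold in Klf9 f/f. The log2 ratio was 1.96, 2.18 and 1.48 in Klf9 +/+ and 2.38, 2.71 and 2.07 in Klf9 f/f. Klf9 f/f samples were the higher within each series, and Klf9 +/+ replicate 2 exceeded Klf9 f/f replicate 3 across series. The genotypes differed by 0.52, with 0.48 and 0.59 in series 22 and 32 (exact permutation test, p = 0.2, adjusted p = 0.667). Within series the exact permutation p was 0.167, the smallest it can give, and 0.417 after adjustment. Among the 5 ligands Dll1, Dll3, Dll4, Jag1 and Jag2, Dll3 held the largest mean share in both genotypes. Its mean was 51.4% ± 12.3 (SD, n = 3) in Klf9 +/+ and 46.5% ± 13.3 in Klf9 f/f, and Dll1 held 29.2% ± 6.59 and 36.4% ± 8.52. Dll3 exceeded Dll1 in every Klf9 +/+ sample, but in Klf9 f/f only in replicate 2. In Klf9 f/f replicates 1 and 3 the share of Dll1 was the larger.

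Notch1 and Notch2 took most of the receptor level, with 43.0% ± 5.58 (SD, n = 3) and 39.4% ± 6.89 in Klf9 +/+ and 47.8% to 49.5% and 37.7% to 41.5% over the Klf9 f/f samples. The log2 ratio of Notch2 over Notch1 was -0.14 ± 0.36 in Klf9 +/+ and -0.28 ± 0.10 in Klf9 f/f (exact permutation test, p = 0.7, adjusted p = 0.8, and p = 0.833 within series). Hes5 exceeded Hes1 by 6.01-fold in Klf9 +/+ and 6.18-fold in Klf9 f/f, a log2 difference of 0.04 (exact permutation test, p = 0.8, adjusted p = 0.8, and p = 0.667 within series). Within the Hes genes tested, Hes6, a family member known to antagonise Hes1, held the largest share, 64.0% ± 4.33 in Klf9 +/+ and 63.7% ± 7.00 in Klf9 f/f.

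**Figure D5:**
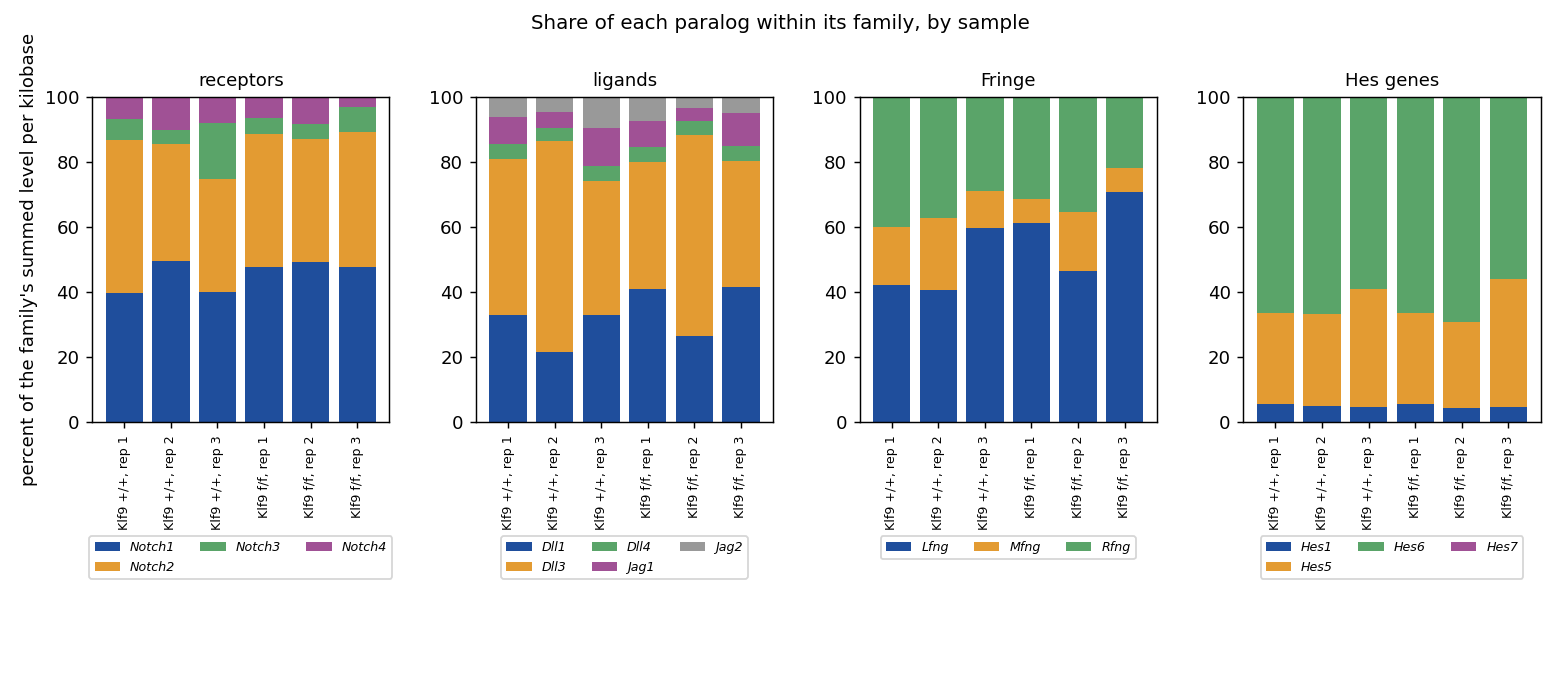
Share of each paralog in the summed level per kilobase of its family in each sample, in percent, for receptors, ligands, Fringe genes and Hes genes. Lfng holds 40.9% to 59.8% of the Fringe level in Klf9 +/+ and 46.4% to 70.8% in Klf9 f/f, and Hes1 holds a mean of 5.11% and 5.00% of the Hes level.

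Differences between the library series were read from the same fit. Jag1, Lfng and Dll1 were called higher in series 32, with log2 differences of 1.07, 0.95 and 0.56 and adjusted p of 0.00967, 0.00443 and 0.0281 (edgeR, quasi-likelihood test, Benjamini-Hochberg). Thus 3 of 10 members were called higher and 0 lower, where 20.7% of all genes were called higher and 22.4% lower. Rfng differed by -0.03 between the series. The series 32 libraries were also the shallower ones, and series and depth cannot be told apart.

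For Lfng, the genes with the most similar pattern were sought among tested genes with a mean of at least 10 CPM, by Pearson's r of log2 CPM over the 6 samples with series means taken off. Apobec3, a cytidine deaminase gene, and Slc20a2, a phosphate transporter gene, came first with r of 1.00 each, followed by Adck3, Solh and Vps52 with r of 0.997 to 0.999. Their log2 fold changes were 0.20, 0.31, 0.26, 0.21 and 0.18, against 0.56 for Lfng. With the series means taken off, 6 points leave 4 free dimensions, so r rests on few independent values. Among the members, Dll1 was the most like Lfng, with an r of 0.58, and Hes5 and Hes1 had an r of 0.81 with each other.

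Of 42 other genes of the pathway listed, 40 passed the filter, and Hes2 and Hes3 did not. Dner, a neuronal Notch ligand, was called higher with a log2 fold change of 0.56 (standard error 0.24), and the receptor Notch4, known from endothelium, was called lower at -0.51 (standard error 0.20). The other 38 were not called, where over all genes tested 1.82% were called higher and 2.50% lower. Of the 40, 0 passed the adjusted threshold of the quasi-likelihood test in edgeR against 2 at an unadjusted p under 0.05, a state of 650 of all 15056 genes, and the median was 0.0083.

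Dner had 25.0, 29.3 and 41.6 CPM in Klf9 +/+ and 57.2, 27.6 and 55.0 CPM in Klf9 f/f. Klf9 f/f replicate 2 lay among the Klf9 +/+ samples, so the groups overlapped in series 22. Without Klf9 f/f replicate 1 its log2 fold change was 0.19 and it was not called. In series 22 alone it was 0.64 and was not called. With astrocyte, choroid plexus and endothelial markers as a covariate in turn it was 0.03, 0.94 and 0.88, and it was called only with the endothelial markers. The part of these cell types in the Dner level was not tested. Notch4 had 9.36, 8.00 and 8.79 CPM in Klf9 +/+ and 6.62, 6.84 and 5.03 CPM in Klf9 f/f, and all Klf9 f/f samples were below all Klf9 +/+ samples. Endothelial markers, lower in Klf9 f/f as given above, moved the same way. With them as a covariate the log2 fold change of Notch4 was -0.44 and was not called, and their part in its level was not tested. In series 22 alone it was -0.37 and was not called.

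The remaining receptor and ligands had values of -0.48 for Notch3 (standard error 0.31), 0.11 for Dll4 (0.22) and -0.35 for Jag2 (0.26), and none of them passed. In levels per kilobase in Klf9 +/+, Hes6 at 172 was the highest of the Hes and Hey group and Hes7 at 0.346 the lowest. Of the genes for receptor cleavage Psenen, a subunit of gamma-secretase, was highest at 101 and Aph1c, another subunit, lowest at 0.905. Of the nuclear complex Snw1 was highest at 78.3 and the coactivator Maml1 lowest at 1.18. Of the remaining groups, Poglut1 at 16.3 and Pofut1 at 2.63, which glycosylate the receptor, and Neurl1a at 12.2 and Neurl1b at 4.26, which act in ligand uptake, were the highest and lowest. Dner at 8.81 and Dlk1 at 0.333 bounded the other ligands, and Notch3 at 1.30 and Notch4 at 1.08 the other receptors.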

How the data were processed

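Ribosome-bound mRNA was sequenced in 3 Klf9 +/+ and 3 Klf9 f/f samples. Reads were mapped to mm9 with STAR and counted on genes with unstranded HTSeq by the authors, who deposited raw counts. Reads that HTSeq set aside as ambiguous between genes made up 1.35% to 2.64% of all entries of a file. Another 6.33% to 12.2% fell on no gene and 7.63% to 13.6% were not unique, and all 5 such summary lines stayed out of library sizes and tests. Identifiers were named from GENCODE M1, on the same build as mm9, with 415 of 37620 unnamed.

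Samples were grouped by the genotype in their labels. Genes that exceeded 1 unscaled CPM in 1 sample or more entered edgeR's quasi-likelihood fit (edgeR 4.0.16, R 4.3.3) after TMM scaling. Library series was a term beside genotype. Genes were called at 1.2-fold and unadjusted p under 0.05, the study's threshold, and in a second count at an adjusted p under 0.05 (Benjamini-Hochberg). A prior count of 2 was added for log2 CPM. Intervals are at 95%, with standard errors derived from the F statistics. The self-test of these fits ran on simulated counts. Promoter windows are from RefSeq, with 8 of the 10 genes matched, all but Mfng and Hes1. Plots were made in Python 3.11.15 with matplotlib 3.10.9.

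The 10 genes, the pathway and marker lists and the tests were chosen with earlier results of these data known. Named are the 10 genes, Klf9, and of the pathway list Notch3, Notch4, Dll4, Jag2, every called gene and the highest and lowest level per role, together with the 5 genes most like Lfng. Single marker genes were named after their values were seen. Alternatives were no series term, DESeq2 1.42.0, edgeR's likelihood-ratio test, upper-quartile and RLE scaling, other filters, series 22 alone, each sample left out, marker covariates and the longest transcript as length. Permutation within library series, the level order by longest transcript and the values of Dner and Notch4 under these settings were chosen after seeing the data.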

Additional observations from a re-analysis of the deposited data

How the results depend on the processing

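Lfng kept its positive log2 fold change under all 17 alternatives and its call under 16, the exception being the fit without the series term. Its adjusted p ran from 0.0348, when all genes with at least 1 count were tested, to 1.00. The lowest value came from a fit in which 334 of 25153 genes were under 0.05, against 0 in the main fit. Series 22 alone and the fits without either replicate 3 rest on the same series 22 samples. They are therefore not separate passes for Lfng. At an adjusted p under 0.05, and likewise without the series term, the members called higher numbered 0, as did the pathway genes called higher and lower. Without the series term 0.332% of all genes were called higher and 1.08% lower. With endothelial markers as a covariate 2 members were called higher and 2 lower, and 0 pathway genes lower, in a fit that called 5.17% of all genes higher and 4.97% lower. With astrocyte markers 2 members were called lower, beside 4.28% of all genes, and with choroid plexus markers 1 member and 2 pathway genes lower and 0 pathway genes higher, beside 4.01% and 2.44% of all genes. Notch2 reversed to -0.70 with the astrocyte and -1.42 with the choroid plexus covariate. When all genes with at least 1 count were tested, 1 member was called lower, beside 3.68% of all genes. In that fit 2 pathway genes were called higher and 2 lower, beside 2.04% and 3.68% of all genes. It also called 5 members higher and 1 lower in series 32, and 2 members passed the interaction test, as with the likelihood-ratio test. For the series and interaction counts, the shares of all genes at these settings are not given. At an adjusted p under 0.05 the interaction count was 0. Upper-quartile scaling called 0 pathway genes higher, beside 1.58% of all genes, and series 22 alone called 0 lower, beside 1.38%.

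With each sample left out in turn, 1 to 4 members were called higher, 0 to 1 lower, 0 to 1 pathway genes higher and 0 to 2 lower. The 4 came without Klf9 +/+ replicate 1, and were Lfng, Notch1, Notch2 and Dll1, beside 2.26% of all genes. The 1 lower was Mfng, without Klf9 f/f replicate 2, beside 1.83% of all genes. No pathway gene was called higher without Klf9 +/+ replicates 1 or 2 or Klf9 f/f replicate 1. In those fits 2.26%, 1.24% and 0.866% of all genes were called higher. None was called lower without Klf9 +/+ replicates 1 or 3 or Klf9 f/f replicates 2 or 3, beside 1.41% to 2.06% of all genes. The 2 pathway genes lower came without Klf9 +/+ replicate 2 or Klf9 f/f replicate 1, beside 3.60% and 4.79% of all genes. With the longest transcript as length, the log2 ratios in Klf9 +/+ were -0.72 for Notch2 over Notch1 (against -0.14), -0.49 for Mfng over Rfng (against -1.08) and 2.21 for Hes5 over Hes1 (against 2.59). The longest transcript of Notch1, Mfng and Hes1 is shorter than their summed exons. For the other changes the cause was not tested.

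No paired analysis was possible because the labels pair no samples. Series 32 holds only 1 sample per genotype and gives no spread. The fit left 3 residual degrees of freedom for each gene, to which the quasi-likelihood test adds spread shared over all genes. The intervals of Mfng, Notch2 and Dll3 were the widest of the 10.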
